A study of Homo sapiens with 2 samples.

Results

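The genes described here encode regulators of alternative splicing, the proteins that decide which exons of a pre-mRNA are kept. They were 62 of 56255 gene symbols in a table of A549 RNA-seq values. A symbol was taken when it named an SRSF protein, an hnRNP of the A, C, D, F, H, K, L, M, R or U groups, or a member of the ESRP, RBFOX, MBNL, CELF, PTBP, NOVA, KHDRBS or TRA2 families, or QKI, and rows for pseudogenes, read-through fusions and antisense RNAs were left out. Each of the 62 symbols stood on a single row, and each identifier was protein coding in GENCODE release 29. The cells were A549, an established line derived from a human lung adenocarcinoma. The study compared 1 library of wild-type cells (WT) with 1 library of cells overexpressing MYOCD, and both were grown in DMEM with serum. Myocardin, the product of MYOCD, works with the DNA-binding factor SRF to switch on genes of cardiac and smooth muscle. The vector, the duration of overexpression and whether the MYOCD cells were a clone were not given in the sources used here.

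Splicing regulators bind short elements in exons and introns and help or hinder the spliceosome at nearby splice sites. SR proteins, with domains rich in serine and arginine, mostly bind exons and favour their inclusion, while many hnRNPs act as silencers. When epithelial cells become mesenchymal, loss of the epithelial factors ESRP1 and ESRP2 and activity of RBFOX2, QKI and HNRNPM are known to switch exons in genes such as FGFR2, CD44, CTNND1 and ENAH. In muscle, PTBP1, MBNL, CELF and RBFOX proteins set the exons of contractile genes.

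Values are RPKM, reads scaled by gene length and by the reads of the library, in the form the authors deposited. Each group is 1 library, so no value has a replicate error, no test was possible, and higher or lower below describes these 2 libraries alone. Log2 changes were computed as log2((MYOCD RPKM + 0.5)/(WT RPKM + 0.5)), which shrinks the differences of weakly expressed genes. A fold given for a single gene is the plain ratio of the deposited values. Counts and shares past 2-fold or 1.5-fold were made on the log2 changes with the pseudocount. RPKM of a whole gene says nothing on which exons were used. MYOCD itself stood at 0.304 RPKM in WT against 48.6 RPKM in MYOCD. Of 9 epithelial markers 8 reached 1 RPKM in a library, 6 of them with a log2 change above 0 and 2 below, and the sum over the 9 was 4217 RPKM in WT and 3632 in MYOCD. KRT18 had 1647 and 1134 RPKM, KRT8 had 1523 and 1059, and KRT7 had 996.5 and 1386. The fibroblast markers DCN and FAP were at 0 in both libraries, as were the blood markers PTPRC and CD3E, the endothelial markers VWF, CDH5, KDR and TEK, and the neural markers GAP43 and STMN2. Summed over the markers of a type, levels ran from 5.75 RPKM in WT to 16.2 in MYOCD for 9 fibroblast genes, 24.01 to 35.9 for 7 smooth muscle genes, 20.9 to 26.8 for 7 blood genes, 1.41 to 3.64 for 6 endothelial genes and 124 to 139 for 14 neural genes, which include RBFOX3 and NOVA1. Marker genes past 2-fold were EPCAM (0.889 and 2.57 RPKM), COL1A1 (3.05 and 14.3), TAGLN (2.34 and 6.93) and ESAM (1.40 and 3.497), all higher, and MAP2 and RBFOX3, both lower. Other markers of these types above 1 RPKM in a library included CD68 (18.3 and 25.1 RPKM) and CD14 (2.31 and 1.17) for blood, SMTN (12.1 and 18.2) and ACTA2 (8.28 and 8.97) for smooth muscle, and THY1 (1.91 and 0.959) for fibroblasts. The part of other cells in the results was not tested.

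Of the 62 regulators 46 reached 1 RPKM in at least 1 library. Their levels were high: the median was 126 RPKM in WT against 117 in MYOCD, 24 of the 46 had a mean of at least 100 RPKM, and the middle gene stood at percentile 95.1 of all genes past the same filter. By a size rule of 2-fold, 0 of the 46 were higher in MYOCD and 2 were lower, RBFOX3 and SRSF6. Over all 17350 genes past the filter the rule called 11.8%, with 5.42% higher and 6.35% lower. The share of regulators past 2-fold was 4.35%. At 1.5-fold, a size chosen after the values were seen, 7 of the 46 stood apart, 2 higher and 5 lower. That is 15.2% of them against 24.8% of all genes. Among genes with at least 20 RPKM in a library the corresponding shares were 12.8% of 39 regulators and 15.4% of all genes at 1.5-fold, and 2.56% and 8.27% at 2-fold. The median log2 change was 0.03 over the 46 regulators and -0.00 over all genes. The shares of regulators past either size were thus below those over all genes. With at least 20 RPKM the shares at 1.5-fold, 12.8% and 15.4%, were close. The 7 past 1.5-fold were RBFOX3, SRSF6, KHDRBS3, SRSF2 and SRSF5, all lower, and RBFOX2 and SRSF4, both higher.

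**Figure D1:**
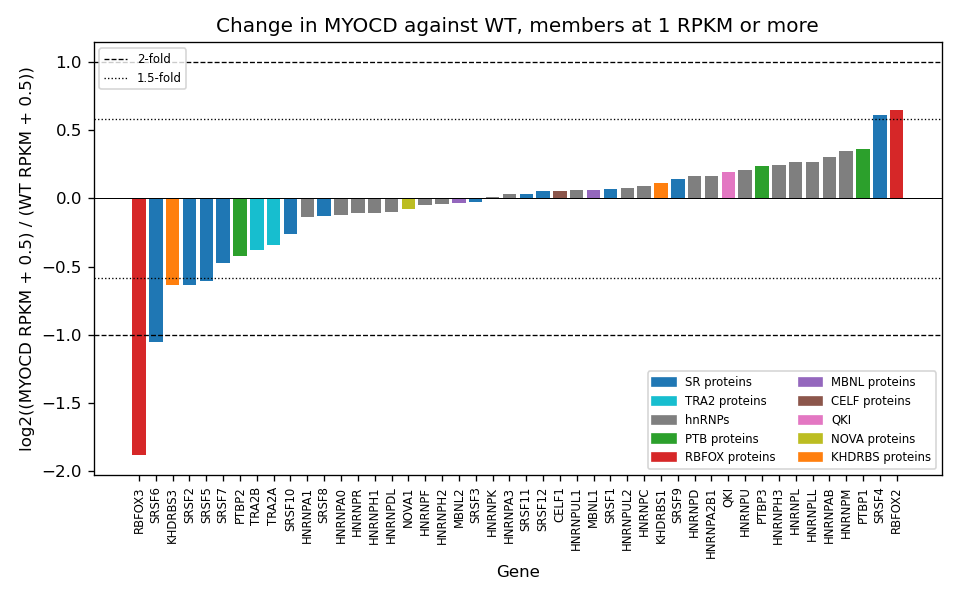
Each bar is the log2 change, MYOCD against WT, of 1 of the 46 splicing regulators with at least 1 RPKM in a library, coloured by family and ordered by size; each group is 1 library and there are no error bars. Dashed lines mark 2-fold and dotted lines 1.5-fold. RBFOX3 (-1.88) and SRSF6 (-1.05) lie past the lower dashed line, RBFOX2 (0.65) and SRSF4 (0.61) are the 2 above the upper dotted line, and most hnRNPs lie near 0.

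The SR proteins differed among themselves, with members both higher and lower in MYOCD. SRSF6 (SRp55), an activator of exon inclusion, had 125 RPKM in WT against 60.3 RPKM in MYOCD, a log2 change of -1.05 or 2.08-fold lower. SRSF2 (SC35), an SR protein that stays in the nucleus, had 334 RPKM in WT against 215 in MYOCD, 1.55-fold lower. SRSF5 (SRp40) had 203 RPKM in WT against 133 in MYOCD, 1.53-fold lower. These 3 genes were the SR members lower by more than 1.5-fold. SRSF4 (SRp75), a close relative of SRSF5 and SRSF6, went the other way, with 47.3 RPKM in WT against 72.5 in MYOCD, 1.53-fold higher. In WT the level of SRSF6 was thus above that of SRSF4 and in MYOCD it was below.

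The start regions of these genes are shown because SRSF4, SRSF5 and SRSF6 are related members that stood apart in different directions. Each window runs from 250 bases before to 50 bases after a RefSeq transcription start, on GRCh38.p14, 5′ to 3′ on the gene's own strand. Capitals mark matches on either strand to GGGCGG, the core of a GC box, or to CGGAAG, the core of ETS factor sites. SRSF6 is on the plus strand at chr20:43457646-43457945, SRSF5 on the plus strand at chr14:69766892-69767191 and SRSF4 on the minus strand at chr1:29181851-29182150.
SRSF6: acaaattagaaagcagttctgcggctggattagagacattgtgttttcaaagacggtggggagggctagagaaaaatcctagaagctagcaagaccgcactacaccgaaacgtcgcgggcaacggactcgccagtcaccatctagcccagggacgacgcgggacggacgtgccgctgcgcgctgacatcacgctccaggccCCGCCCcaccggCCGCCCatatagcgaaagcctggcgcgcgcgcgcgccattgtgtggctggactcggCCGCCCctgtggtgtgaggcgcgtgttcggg
SRSF5: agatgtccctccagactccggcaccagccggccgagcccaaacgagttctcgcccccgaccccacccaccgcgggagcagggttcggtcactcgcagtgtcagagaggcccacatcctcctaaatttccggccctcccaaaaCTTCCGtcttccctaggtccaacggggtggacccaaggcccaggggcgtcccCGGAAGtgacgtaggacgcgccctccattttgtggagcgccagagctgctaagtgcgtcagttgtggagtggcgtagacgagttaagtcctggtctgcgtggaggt
SRSF4: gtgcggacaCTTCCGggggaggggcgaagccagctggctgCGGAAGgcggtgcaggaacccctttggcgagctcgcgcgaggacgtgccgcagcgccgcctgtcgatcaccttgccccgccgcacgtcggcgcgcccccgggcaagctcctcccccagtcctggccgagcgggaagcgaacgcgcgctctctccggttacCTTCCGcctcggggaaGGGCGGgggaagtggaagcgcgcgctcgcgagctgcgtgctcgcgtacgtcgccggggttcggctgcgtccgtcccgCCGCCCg
The 3 windows were also searched on both strands for CCAAT, for TATAAA and for the CArG box, the SRF element, and held no match to any of them. The SRSF6 window had GGGCGG at 3 places, all read on the other strand, and no CGGAAG. The SRSF5 window had CGGAAG at 2 places and no GGGCGG, and the SRSF4 window had GGGCGG at 2 places and CGGAAG at 3. RefSeq windows were found for 40 of the 46 regulators, 75 windows in all, since some genes have several starts. GGGCGG was in 53.3% of these and in 45.0% of all 35116 windows, and CGGAAG in 32.0% against 19.5%. CCAAT was in 38.7% against 34.6%, TATAAA in 14.7% against 11.5%, and the CArG box in 1.33% against 1.29%, the 1 window belonging to HNRNPD. The 40 regulators had passed the filter of 1 RPKM, while the 35116 windows were taken whatever the level of the gene. The part of expression level in these shares was not tested. These matches are letters in a window and not measured sites.

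Of the other SR proteins, SRSF7, which also links splicing to mRNA export, had 197 RPKM in WT against 142 in MYOCD, 1.39-fold lower. SRSF10, a splicing repressor when dephosphorylated, had 96.3 RPKM in WT against 80.1 in MYOCD. SRSF3, an export adaptor like SRSF7, was close to level with 298 RPKM in WT against 292 in MYOCD. The founding member SRSF1, which also drives exon skipping in the MST1R (RON) transcript, had 267 RPKM in WT against 279.5 in MYOCD. SRSF9 (SRp30c) had 144 and 159 RPKM and SRSF11 had 75.9 and 77.5 RPKM in WT and MYOCD. Both minor members were low, with SRSF8 at 8.19 and 7.46 RPKM and SRSF12, an antagonist of other SR proteins, at 1.80 and 1.88. In the family as a whole 8 of 12 members lay within 1.5-fold and 4 past it, and the median log2 change was -0.08. Over all genes 24.8% lay past that size, and 15.4% of those with at least 20 RPKM in a library.

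Summed over the 12 genes, SR protein RPKM was 1797 in WT and 1520 in MYOCD, a sum lower by 15.4%. The genes SRSF2, SRSF5, SRSF6 and SRSF7 made up 859 RPKM of it in WT and 550.1 in MYOCD, or 47.8% and 36.2% of the sum. They were picked here because they were lower. The other 8 members together stood at 938 and 970 RPKM. The share of SRSF4 in the sum was 2.63% in WT and 4.77% in MYOCD.

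Both TRA2 proteins, SR-like activators that bind purine-rich exonic enhancers, were lower and under 1.5-fold. TRA2B had 215 RPKM in WT against 166 in MYOCD, a log2 change of -0.38, and TRA2A had 88.9 and 70.2 RPKM, a log2 change of -0.34.

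**Figure D2:**
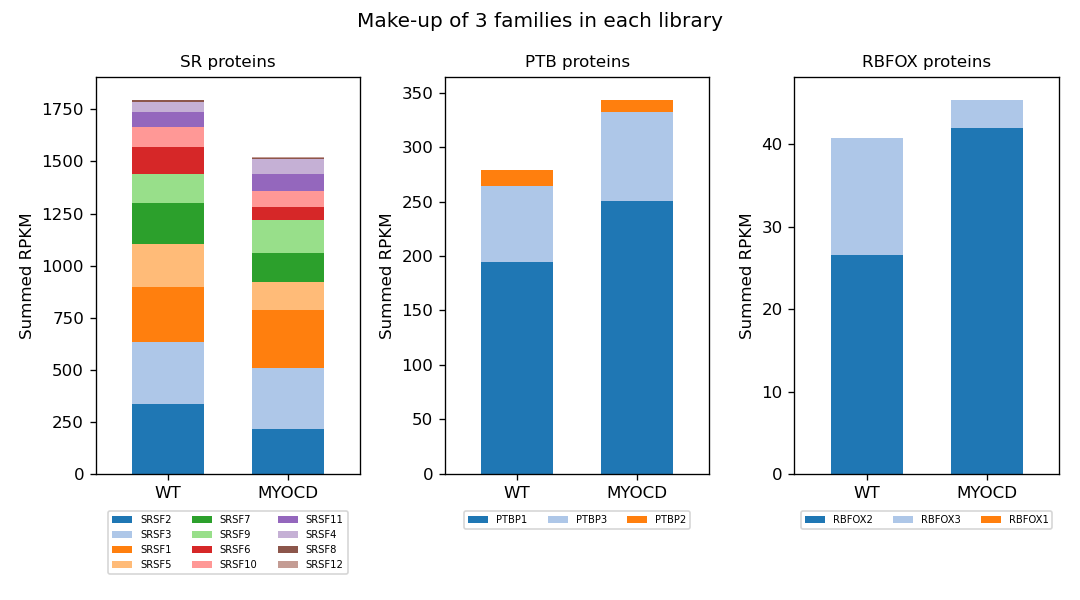
Stacked bars give the RPKM of each member of the SR, PTB and RBFOX families, summed within a family, in the WT and the MYOCD library (1 each, no error bars); the vertical axes differ between panels. The SR sum is 1797 RPKM in WT against 1520 in MYOCD with thinner SRSF2, SRSF5, SRSF6 and SRSF7 segments, PTBP1 makes up most of the PTB sum in both, and RBFOX3 narrows from 14.2 to 3.49 RPKM.

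The family with the largest single difference was RBFOX. RBFOX3, known as the neuronal nuclear antigen NeuN, had 14.2 RPKM in WT against 3.49 RPKM in MYOCD, a log2 change of -1.88 or 4.07-fold lower. RBFOX2, the form common outside the nervous system and a promoter of mesenchymal exons, had 26.6 RPKM in WT against 41.96 in MYOCD, a log2 change of 0.65 or 1.58-fold higher. RBFOX1, the muscle and neuron form, was at 0.0181 RPKM in WT and listed at 0 in MYOCD. The sum of the 3 genes was 40.8 RPKM in WT against 45.4 in MYOCD, and the share of RBFOX2 in it was 65.2% and 92.3%. RBFOX2 lies on chromosome 22 from 35738736 to 36028425 and RBFOX3 on chromosome 17 from 79089345 to 79516148, both on the minus strand (GRCh38). Exons of other genes overlap neither gene, and GENCODE lists 1 transcript under 200 nt for RBFOX3 and 0 for RBFOX2. Of the other neural markers MAP2 stood at 2.78 and 0.978 RPKM, TUBB3 at 76.4 and 96.4, and SNAP25 at 8.87 and 17.03, so they did not share 1 direction with RBFOX3.

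The ESRP proteins, the epithelial splicing regulators, were low in both libraries. The 9 epithelial markers differed widely in level, from CLDN7 at 0.597 RPKM to KRT18 at 1647 in WT. In MYOCD they ran from CLDN7 at 0.364 RPKM to KRT7 at 1386. ESRP1 stood at 0.109 RPKM in WT against 0.661 in MYOCD, and ESRP2 at 0.615 and 0.741. Neither reached 1 RPKM, so neither was counted, and no difference is read from such levels. Their sum of 0.724 and 1.40 RPKM set them below RBFOX2, QKI and HNRNPM in either library. QKI, which promotes mesenchymal exons and circular RNAs, had 40.2 RPKM in WT against 46.0 in MYOCD, a log2 change of 0.19. HNRNPM, which favours skipping of the variable exons of CD44, had 136 RPKM in WT against 173 in MYOCD, a log2 change of 0.35. QKI and HNRNPM were thus far above both ESRP genes in each library, where the ESRP genes were under 1 RPKM.

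Among PTB proteins, which bind pyrimidine-rich tracts and repress exons, PTBP1 had 194 RPKM in WT against 250.05 RPKM in MYOCD, a log2 change of 0.36. PTBP2, the neuronal form, had 15.3 RPKM in WT against 11.3 in MYOCD, a log2 change of -0.42. PTBP3 had 69.5 and 82.2 RPKM, a log2 change of 0.24. All 3 lay within 1.5-fold. The level of PTBP1 was 12.7 times that of PTBP2 in WT and 22.2 times in MYOCD, and the PTB sum was 279 and 343.5 RPKM.

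The hnRNPs had the largest summed level of the families. Of 25 members 20 reached 1 RPKM, and 0 of these 20 passed 1.5-fold, against 24.8% of all genes. Each of the 20 also had at least 20 RPKM in a library, and of all genes at that level 15.4% passed 1.5-fold. The log2 changes of the 20 hnRNPs ran from -0.13 for HNRNPA1 to 0.35 for HNRNPM, with 13 above 0 and 7 below and a median of 0.07. Summed hnRNP RPKM was 5116 in WT and 5317 in MYOCD, or 65.4% and 68.5% of the RPKM of all 62 regulators. HNRNPA1, a silencer that opposes SRSF1, had 786 RPKM in WT against 717 in MYOCD. HNRNPH1, which binds runs of G, had 781 and 725 RPKM, and HNRNPA2B1, a relative of HNRNPA1, had 659 and 740.2. HNRNPC, which binds runs of U, had 418 RPKM in WT against 446 in MYOCD. Together these 4 genes were 51.7% and 49.4% of the hnRNP sum.

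Next to HNRNPM, the hnRNPs furthest above 0 were HNRNPAB, with 140.0 RPKM in WT against 173 in MYOCD, and HNRNPLL, known for its part in CD45 splicing in lymphocytes, with 27.2 and 33.0. HNRNPL, which binds CA repeats, had 310.1 RPKM in WT against 374 in MYOCD. HNRNPH3 had 127 and 150.01 RPKM, and the nuclear scaffold protein gene HNRNPU 243 and 282. All 5 were higher in MYOCD by less than HNRNPM. HNRNPD (AUF1), which also binds AU-rich elements and controls mRNA decay, had 185 RPKM in WT against 208 in MYOCD. The hnRNPs that follow lay closer to 0. HNRNPK, which binds C-rich RNA, was at 369.6 and 373 RPKM, HNRNPA3 at 259 and 264, and HNRNPUL1 at 197 and 206. HNRNPDL was at 136 and 127 RPKM, HNRNPF at 126 and 121, and HNRNPR at 121 and 112. These 6 sat within 0.11 log2 units of 0. Among the less abundant of the 20, beside HNRNPLL, were HNRNPA0 at 33.004 and 30.3 RPKM, HNRNPH2 at 37.04 and 36.01, and HNRNPUL2 at 24.6 and 25.99.

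MBNL and CELF proteins, antagonists that set fetal and adult exons in muscle, were nearly level. MBNL1 had 55.04 RPKM in WT against 57.5 in MYOCD, MBNL2 had 15.9 and 15.5, and CELF1 had 65.8 and 68.3. The level of MBNL1 was 0.837 times that of CELF1 in WT and 0.841 times in MYOCD. MBNL3 and CELF2 to CELF6 lay under 1 RPKM in both libraries. NOVA1, a neuronal regulator that was nonetheless present in these cells, had 10.99 RPKM in WT against 10.4 in MYOCD, while NOVA2 had 0.708 and 0.473.

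Of the KHDRBS proteins, KHDRBS1 (Sam68), which couples ERK signalling to CD44 splicing, had 89.2 RPKM in WT against 96.7 in MYOCD. KHDRBS3 (SLM2) was low, with 2.53 RPKM in WT against 1.45 in MYOCD, a log2 change of -0.64, and KHDRBS2 was listed at 0 in both. In all, 16 regulators stayed under 1 RPKM in both libraries. Listed at 0 in both were 5 of them, KHDRBS2 and HNRNPCL1 to HNRNPCL4, and the highest of the 16 was HNRNPA1L2, an HNRNPA1-like retrogene, at 0.980 and 0.947 RPKM.

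**Figure D3:**
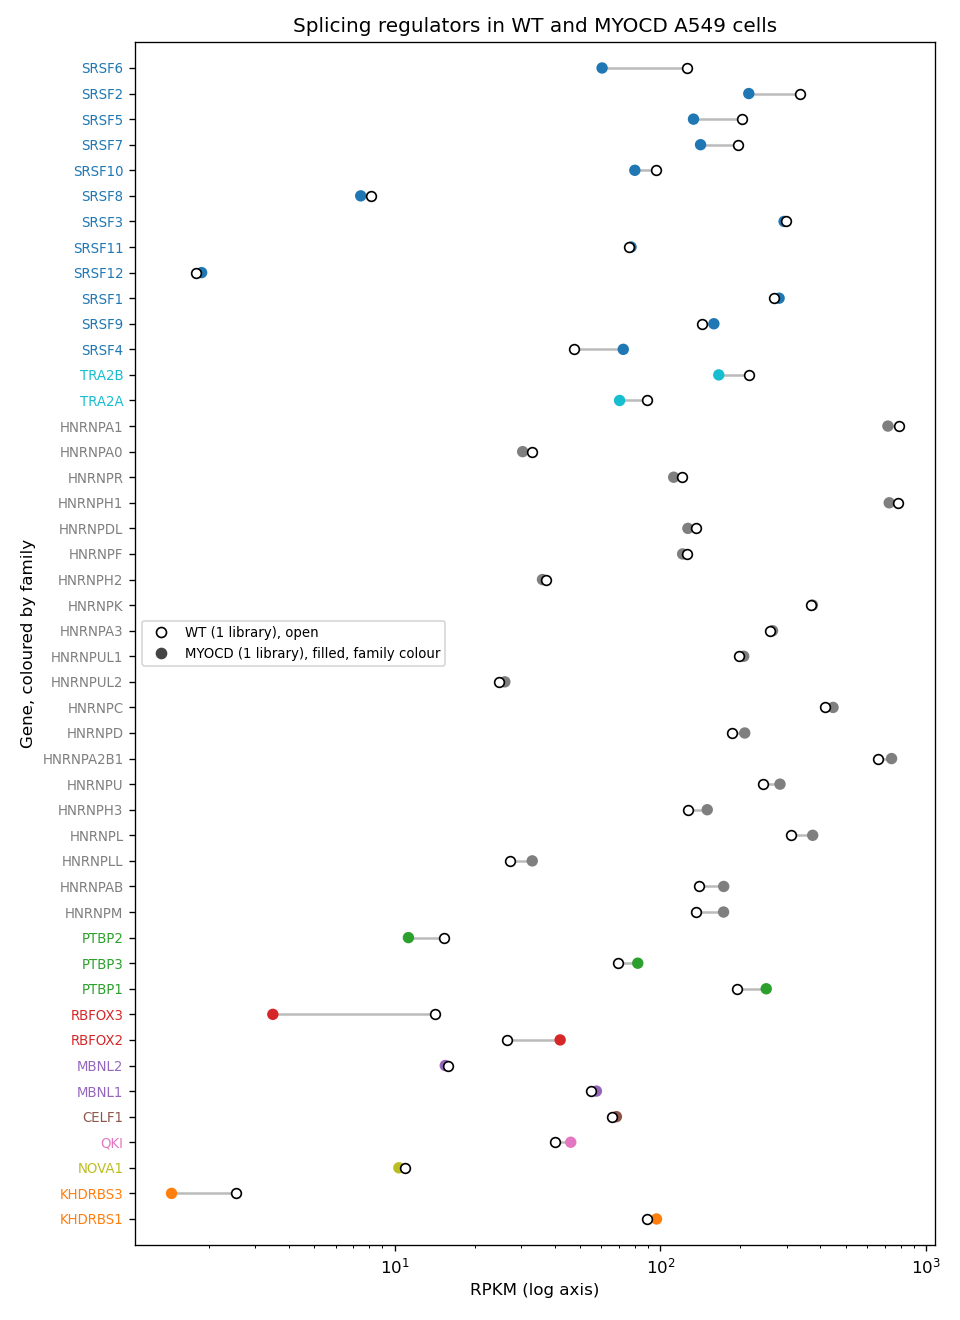
Open circles give the WT level and filled circles the MYOCD level (1 library each, RPKM on a log axis) of the 46 regulators with at least 1 RPKM in a library, grouped by family. The hnRNPs HNRNPA1, HNRNPH1 and HNRNPA2B1 are the most abundant, and the circles are furthest apart for RBFOX3 (14.2 and 3.49 RPKM) and SRSF6 (125 and 60.3 RPKM).

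Neighbouring genes bear on some of these values, since whether reads were assigned by strand was not given in the sources used here. For 27 of the 46 regulators no exon of another GENCODE gene overlapped theirs, among them SRSF5, SRSF6, SRSF7, TRA2A, TRA2B, RBFOX2 and RBFOX3. For 7 of them more than 10% of the exon length was shared on the same or the opposite strand. SRSF2 shares 36.7% of its exon length with MFSD11 on the opposite strand, and MFSD11 was also lower, at 102 RPKM in WT against 69.9 in MYOCD, a log2 change of -0.55 against -0.63 for SRSF2. SRSF9 shares 46.2% with GATC on the opposite strand, which stood at 16.2 and 19.4 RPKM, and SRSF1 shares 56.6% on its own strand with AC015813.2. HNRNPUL2 shares 44.1% with the same-strand fusion HNRNPUL2-BSCL2 (14.5 and 16.9 RPKM), and HNRNPH2 shares 16.3% with the same-strand fusion RPL36A-HNRNPH2 (6.02 and 0.153 RPKM). HNRNPU shares 15.6% with COX20 (27.3 and 25.03 RPKM) and MBNL1 15.6% with neighbours that include MBNL1-AS1 (3.85 and 3.94 RPKM), all on the opposite strand. The part of shared reads in these values was not tested.

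The rest of the splicing machinery gives the setting. Of 46 core spliceosome genes 45 passed the filter and 0 of them lay past 1.5-fold in either direction, against 24.8% of all genes. Most of these core genes were well expressed, and among all genes with at least 20 RPKM in a library the share was 15.4%. The log2 changes of the core genes ran from -0.38 for the helicase gene DHX8 to 0.37 for DHX16, with a median of 0.04. SNRPD2, SNRPB and SF3B3, the most abundant core genes, stood at 397 and 384 RPKM, 288 and 286, and 216 and 277. The extremes of the 46 regulators, -1.88 for RBFOX3 and 0.65 for RBFOX2, lay outside those of the core genes in these libraries. The quartiles of the regulators were -0.12 and 0.17, and those of all genes past the filter -0.30 and 0.27.

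Importin genes and kinases that phosphorylate SR proteins made up a list of 11 genes, all past the filter. On the log2 scale with the pseudocount, 1 of them lay past 2-fold, or 9.09% against 11.8% of all genes, and 3 past 1.5-fold, or 27.3% against 24.8%. CLK3, a dual-specificity kinase of nuclear SR proteins, had 11.4 RPKM in WT against 26.1 in MYOCD, a log2 change of 1.16, and was the 1 past 2-fold. CLK4 had 6.83 and 12.5 RPKM, and the cytoplasmic kinase SRPK1 40.9 and 52.7. SRPK3 had 0.291 and 1.04 RPKM, 3.56-fold higher by the plain ratio but with a log2 change of 0.96 on the scale with the pseudocount. The importin gene TNPO1, the most abundant of the list, had 145 and 122.6 RPKM. The median of the 11 was 0.24, with 7 above 0. GENCODE gives opposite-strand overlap for 6.65% of CLK3 exon length.

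Of 38 other splicing RNA-binding proteins past the filter 0 lay past 2-fold, against 11.8% of all genes. At 1.5-fold 2 were higher and 0 lower, or 5.26% against 24.8%, and the median was 0.03. The 2 were RBM20, the heart regulator of titin splicing, at 4.49 RPKM in WT against 7.45 in MYOCD, and SRRM3, a neural microexon factor, at 1.71 and 2.94. RBPMS, a regulator of smooth muscle splicing, was at 79.5 and 55.4 RPKM and RBM24, a muscle splicing factor, at 21.3 and 14.9. RBPMS and RBM24 were lower in MYOCD by less than 1.5-fold, while RBM20 was higher. RBPMS2 (6.22 and 7.22 RPKM) and RBM38 (10.7 and 15.0 RPKM) of the same list were also higher. Over the list 23 genes lay above 0 and 15 below. The most abundant of the list were DDX5 at 539 and 434 RPKM, PCBP2 at 422 and 414, and NONO at 308 and 314. Nonsense-mediated decay removes the nonproductive isoforms that many SR and hnRNP genes make. Of its 10 listed factors 0 lay past 1.5-fold, against 24.8% of all genes, and the median was -0.03. Among them SMG1 stood at 52.1 and 51.03 RPKM and SMG9 at 42.4 and 32.04.

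**Figure D4:**
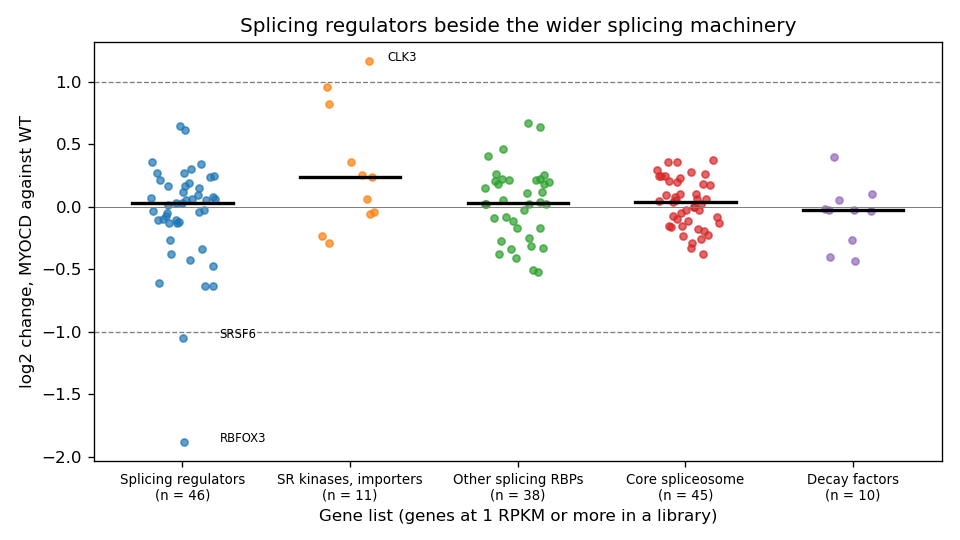
Points are genes with at least 1 RPKM in a library in 5 lists and show the log2 change, MYOCD against WT; black lines are medians, dashed lines mark 2-fold, sideways scatter is random, and each group is 1 library. The regulators range from -1.88 (RBFOX3) to 0.65, the core spliceosome genes stay between -0.38 and 0.37, and CLK3 (1.16) lies past 2-fold among the SR kinases.

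Genes whose exons these factors switch were looked at for their total level, which does not show the exon choice itself. Of 20 hosts of exons switched in epithelial-mesenchymal transition 19 passed the filter, with a median of 0.02. FGFR2, the best known ESRP target, was not among them, at 0.747 RPKM in WT against 0.426 in MYOCD. PKM, the pyruvate kinase gene whose exons PTBP1 and HNRNPA1 select, had 1194 RPKM in WT against 1509 in MYOCD, TPM1 had 192 and 320.4, and CD44 had 199 and 285. CTNND1 stood at 86.5 and 67.96 RPKM and ENAH at 105 and 123.4. SCRIB, a polarity gene, was the 1 host past 2-fold, at 33.1 RPKM in WT against 706 in MYOCD. That is 5.26% of the 19 hosts against 11.8% of all genes. GENCODE places the microRNA gene MIR937 inside the span of SCRIB on the same strand, where it overlaps 0.291% of the exon length of SCRIB. The part of MIR937 in the SCRIB value was not tested. Of 13 hosts of exons regulated in muscle 11 passed the filter, 10 above 0 and 1 below, with a median of 0.39. Of all genes past the filter 49.8% lay above 0. This list also holds MBNL1, itself 1 of the 46 regulators, and genes of the smooth muscle marker list. The 11 included FLNA at 359 and 515 RPKM, ACTN1 at 144 and 147, TPM2 at 109 and 172, and CALD1 at 85.9 and 138. Past 2-fold were 0, against 11.8% of all genes. Past 1.5-fold on the log2 scale with the pseudocount were 2, CALD1 and TPM2, or 18.2% against 24.8%. SMTN was 1.51-fold higher by the plain ratio, but its log2 change of 0.58 lay just under that size.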

How the data were processed

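RNA-seq values of 2 libraries, 1 per group, were read from 1 deposited table of 57979 rows. Per the file headers the values are RPKM, made by the authors, and a key in the table ties its columns to WT and MYOCD. Per the submitters' processing notes, Bowtie 0.12.2 and the builds mm8 and GRCh38.p12 were named without a role. The counting tool, annotation and strand setting were not given in the sources used here. Without counts the depth is unknown, and intervals of counting error could not be had. The sums of RPKM over the table were 886700 (WT) and 880876 (MYOCD), and 16161 and 15973 genes reached 1 RPKM.

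For 248 symbols on several rows the row with the highest mean was kept. Log2 changes used a pseudocount of 0.5 RPKM, genes needed at least 1 RPKM in 1 library, and 2-fold was a rule of size, not a test. The script was tested on simulated data, with planted changes larger than 2-fold and no counting error. That checks the arithmetic and not the calls made here. The members and lists were chosen with earlier results of these data known. Every member past the filter is named, with list genes past 2-fold (up to 6 a list) and the most abundant. Further list genes (CLK4, SRPK3, RBM20, SRRM3, RBPMS, RBPMS2, RBM24, RBM38, DHX8, DHX16, FGFR2, CD44, CTNND1, ENAH, CALD1, CLDN7 and SNAP25) and the neighbours were named after their values were seen. The values of 1 list gene are not reported here. Positions and exon overlaps came from GENCODE 29 on GRCh38, which held 57375 of the identifiers, and start windows from RefSeq on GRCh38.p14. Python 3.11.15, pandas 2.3.3 and numpy 2.4.6 were used.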

Additional observations from a re-analysis of the deposited data

How the results depend on the processing

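With 1 library per group no replicate could be left out, and no paired analysis was possible because the groups share no replicates beyond 1 library each. The counts of 0 regulators higher and 2 lower by 2-fold were the same under all 9 alternatives (pseudocounts of 0.1 and 1 RPKM, 3 other filters, 3 scalings, and rows of a symbol summed). Summing rows could not change them, since each regulator stood on a single row. The filter on a mean of at least 1 RPKM kept the same 46 regulators, and the scalings moved log2 changes by about 0.04 or less. The median log2 change of the regulators was -0.011 when the median of core spliceosome genes was set to 0, a shift of 0.04, 0.040 with the RPKM totals of the libraries made equal and 0.0069 over all 62 without a filter. Of the 46 regulators 43 kept their sign under each alternative that gave them a value (SRSF12 and KHDRBS3 have none with at least 5 RPKM), and HNRNPK, HNRNPA3 and SRSF11 changed sign when the core genes were set to 0. Under that setting SRSF4 (0.57) dropped below 1.5-fold, which left 1 regulator higher at that size in place of 2. KHDRBS3 (-0.53) dropped below 1.5-fold with a pseudocount of 1 RPKM, and it drops out with at least 5 RPKM, which left 4 lower in place of 5. With a pseudocount of 1 RPKM the log2 changes of EPCAM (0.92), ESAM (0.90) and MAP2 (-0.93) dropped below 2-fold, and with 0.1 RPKM that of SRPK3 was 1.54. Each of these 4 genes is near or under 3 RPKM. RBFOX3 ranged from -1.99 to -1.76 and SRSF6 from -1.09 to -1.04. Depth is unknown, so how far counting error reaches into low values cannot be given.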

Other observations

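The rows left out by the choice of members were mostly silent. Of 128 pseudogene rows of these families 66 were listed at 0 in both libraries and 6 reached 1 RPKM in one. The HNRNPA1 pseudogenes were the largest set, with 75 rows, of which 4 reached 1 RPKM. HNRNPA1P33, which spans bases 46415853 to 46416413 of chromosome 10 (GRCh38), was listed at 25.9 RPKM in WT against 55.9 in MYOCD, a log2 change of 1.10, while HNRNPA1 stood at 786 and 717. HNRNPA1P16 was at 2.61 and 3.40 RPKM and HNRNPA1P48 at 2.08 and 2.10. How reads common to HNRNPA1 and its copies were assigned was not given in the sources used here, so these pseudogene values are uncertain. These genes were singled out after their values were seen.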
